A study of Homo sapiens with 6 samples.

Results

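Fibroblast growth factors (FGFs) and platelet-derived growth factors (PDGFs), together with their receptors, were followed in BT549 cells treated with AS1842856. The members were 10 genes, taken by gene symbol from the 58735 genes of the deposited count table: the ligands FGF1, FGF2, FGF5, PDGFA, PDGFB and PDGFC and the receptors FGFR1, FGFR2, PDGFRA and PDGFRB. BT549 cells are a long-established human line derived from a basal-like tumor of the breast. AS1842856 inhibits the DNA binding of FOXO1, a transcription factor of the forkhead family. The study proposes that the drug modulates FOXO1 and does not only inhibit it. RNA-Seq was performed on 3 libraries from cells given DMSO, the solvent, and 3 libraries from cells given AS1842856, each after 48 h. The sample labels give a dose of 200 nM and the methods of the study give 1 μM, and which was used was not resolved here. All 6 libraries came from 1 cell line without any genetic change, so the comparison covers that line at that time only.

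FGFs bind receptor tyrosine kinases of the FGFR family together with heparan sulfate chains on the cell surface, and the receptors signal through the docking protein FRS2 to RAS, ERK and PI3K. PDGFs are dimers that bind the receptors PDGFRA and PDGFRB, which are typical of fibroblasts and other mesenchymal cells. Both families stimulate growth and migration, and several of their genes are expressed by basal-like breast cancer cells.

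The libraries held between 15289500 and 22981832 counts, the TMM scaling factors lay between 0.995 and 1.01, and the median log2 fold change of all genes tested was 0.00. All 8 mesenchymal markers were above 1 CPM (counts scaled to library size) on average, with a summed level of 5703 to 6042 CPM in DMSO and 4102 to 4135 CPM with AS1842856. This sum was not moved by all its genes in 1 direction: 5 fell, among them COL1A2 (1779 ± 80.4 to 388 ± 8.15 CPM), and 3 rose, namely FN1 (449.5 ± 32.4 to 981 ± 21.8 CPM), SNAI2 (116 ± 5.0 to 198 ± 1.49 CPM) and ZEB1 (69.7 ± 2.76 to 98.5 ± 4.03 CPM). The luminal markers summed to between 170.1 and 177 CPM in DMSO and between 92.1 and 98.8 CPM with AS1842856, with 5 of 9 genes above 1 CPM. Of these 5, 4 fell, including KRT8 (40.9 ± 1.79 to 4.15 ± 0.301 CPM) and KRT18 (33.9 ± 3.47 to 3.45 ± 0.0744 CPM), and GATA3 rose (50.9 ± 2.47 to 61.7 ± 4.23 CPM). FOXA1, also among the 4 that fell, would not have had enough counts to be tested by its AS1842856 libraries alone. The blood and immune markers summed to 1.02 to 2.15 CPM in DMSO and 3.54 to 4.65 CPM with AS1842856, with CD3E and HBB at 0 in all 6 libraries, and PTPRC rose from 1.15 ± 0.433 to 3.16 ± 0.480 CPM (log2 fold change 1.48, edgeR adjusted p = 4.99e-07). The 4 endothelial markers summed to 0.538 to 1.05 CPM in DMSO and 1.05 to 1.74 CPM with AS1842856, with CDH5 at 0. The marker genes were named after their values were seen. The part of these shifts in the results below was not tested. Replicates A, B and C of each group are called biological replicates by the study, but the labels do not say that they came from separate cultures, so p-values measure the spread between these libraries. In such bulk libraries, a lower level in every cell cannot be told apart from fewer cells that express the gene.

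Of the 10 members, 7 held enough counts to be tested with edgeR's quasi-likelihood test. With AS1842856, 2 of these 7 were called higher and 4 were called lower at an adjusted p under 0.05, and FGFR1 was not called. Of those called lower, PDGFRB had enough counts to be tested only through its DMSO libraries. Calls were frequent across the transcriptome: 56.0% of the 14338 genes tested were called, 27.6% as higher and 28.4% as lower. Against that background the members' 6 calls of 7 stand as a description, and what follows gives the direction and size for each gene. Among the 7 tested members, the 6 called were also those whose groups did not overlap in CPM, as was the case for 59.9% of all genes tested. The median log2 fold change of the 7 tested members was -0.52.

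FGF1 encodes acidic FGF, a ligand able to activate all FGF receptors, and is a gene of chr5:142592178-142698070 on the minus strand (GRCh38). It was counted 655, 472 and 567 times in DMSO replicates A, B and C and 141, 211 and 161 times in AS1842856 replicates A, B and C. Scaled to library size, these were 29.8, 30.7 and 30.5 CPM in DMSO and 8.46, 9.24 and 9.03 CPM with AS1842856, so every treated library lay far below every control. FGF1 fell to 29.5% of its DMSO level, a log2 fold change of -1.76 ± 0.09 (SE, n = 3 against 3; edgeR adjusted p = 2.23e-47). Only 1.97% of the genes tested had a lower log2 fold change.

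FGF2, basic FGF, is a broadly acting mitogen that lacks a classical signal peptide, and its gene lies at chr4:122826708-122898236 on the plus strand. It was counted 7219, 5032 and 6101 times in DMSO and 3283, 4305 and 3290 times with AS1842856. The levels were 329, 328 and 328 CPM in DMSO and 197, 189 and 184 CPM with AS1842856, without overlap between groups. FGF2 fell to 57.9% of its DMSO level, with a log2 fold change of -0.79 ± 0.04 (edgeR adjusted p = 1.99e-56). The exons of NUDT6, on the opposite strand, overlap those of FGF2, and whether counting used strand is not given in the sources used here. NUDT6 held 1.27% as many counts as FGF2 in DMSO and 2.02% with AS1842856.

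FGF5, a secreted FGF best known as a regulator of the hair cycle, lies at chr4:80266599-80336680 on the plus strand. Its counts were 4823, 3522 and 4274 in DMSO and 2670, 3602 and 2781 with AS1842856. Its levels were 219.7, 229 and 230.0 CPM in DMSO and 160.2, 158 and 156 CPM with AS1842856. The treated libraries were again all below the controls, and FGF5 fell to 69.8% of its DMSO level (log2 fold change -0.52 ± 0.04, edgeR adjusted p = 3.41e-30). CFAP299, which shares exonic sequence with FGF5 on the same strand, held 0.914% as many counts. All 3 FGF ligands among the members thus fell, and their 95% intervals of the log2 fold change (-1.95 to -1.58 for FGF1, -0.86 to -0.72 for FGF2 and -0.59 to -0.44 for FGF5) did not overlap.

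**Figure D1:**
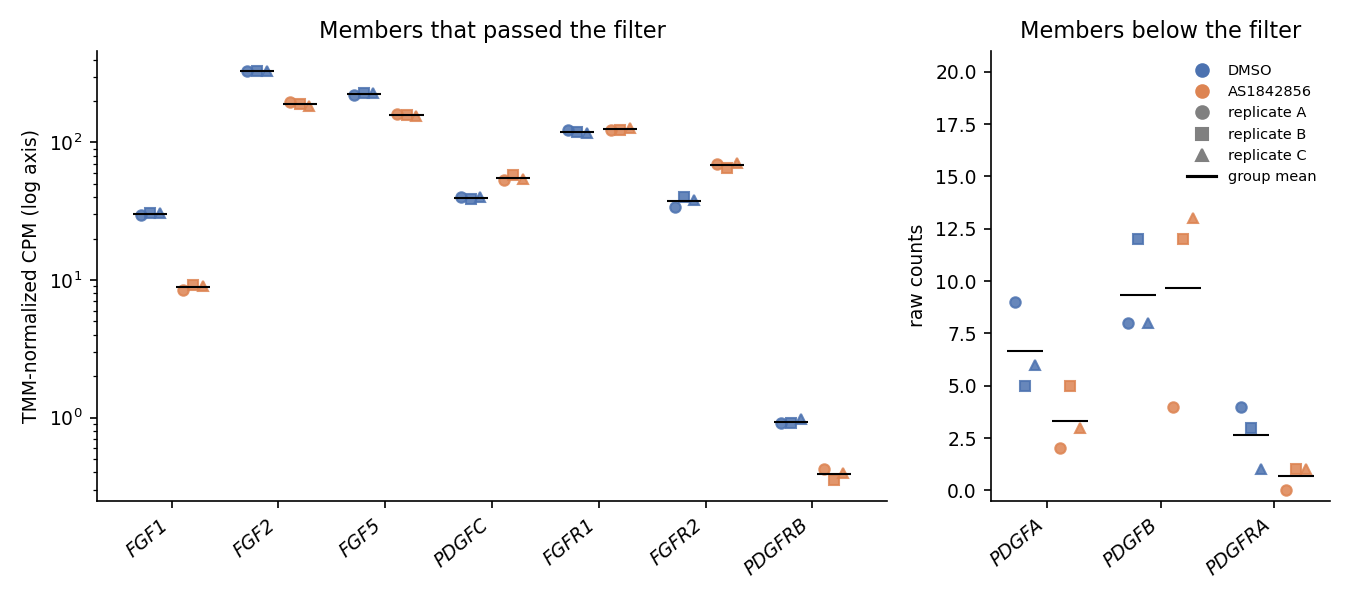
Level of each of the 10 members in the 6 libraries, with DMSO in blue, AS1842856 in orange, a marker shape for each replicate and a line for the mean of each group of 3. The left panel plots TMM-normalized CPM on a log axis for the 7 tested members: FGF1, FGF2, FGF5 and PDGFRB are lower with AS1842856 in all 3 libraries, PDGFC and FGFR2 are higher in all 3, and FGFR1 overlaps; the right panel plots raw counts of PDGFA, PDGFB and PDGFRA, none above 13 in any library.

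The sequence around the start sites was searched for 7 of the 10 members, from RefSeq (GRCh38.p14). It was taken as 19 windows of 250 bases before to 50 bases after an annotated start. No window of FGFR1, PDGFB or PDGFC was searched. Each window was searched on both strands for the forkhead letters GTAAACA and ATAAACA, the type of motif that FOXO factors bind, for the TCF/LEF letters CTTTGAT and for the AP-1 letters TGANTCA. One or other forkhead form was present in 7.43% of 35116 such windows of all genes, the TCF/LEF letters in 2.62% and the AP-1 letters in 7.71%. Of the 19 windows searched, forkhead letters were found in 1 window of FGF1 and 1 window of FGF5 only, and these windows are shown with the letters in capitals. The other windows of FGF1 and FGF5 held no forkhead letters. Whether the members differ from the 7.43% of all windows was not tested. For comparison, windows of FGF2, which fell, and FGFR2, which rose, held none of the letters searched. The FGF1 window is chr5:142686041-142686340 on the minus strand, the FGF5 window chr4:80268018-80268317 on the plus strand, the FGF2 window chr4:122826581-122826880 on the plus strand, and the FGFR2 window chr10:121598395-121598694 on the minus strand.
FGF1: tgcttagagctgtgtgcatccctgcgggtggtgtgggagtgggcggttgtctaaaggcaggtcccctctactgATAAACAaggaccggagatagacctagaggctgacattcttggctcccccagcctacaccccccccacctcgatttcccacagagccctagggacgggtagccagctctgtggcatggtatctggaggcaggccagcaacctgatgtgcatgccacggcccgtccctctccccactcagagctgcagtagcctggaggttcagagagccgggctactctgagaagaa
FGF5: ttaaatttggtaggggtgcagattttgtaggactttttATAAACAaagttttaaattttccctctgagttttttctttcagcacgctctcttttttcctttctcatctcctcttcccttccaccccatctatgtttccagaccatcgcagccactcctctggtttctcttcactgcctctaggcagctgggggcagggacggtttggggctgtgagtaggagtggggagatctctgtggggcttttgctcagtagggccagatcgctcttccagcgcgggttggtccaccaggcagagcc
FGF2: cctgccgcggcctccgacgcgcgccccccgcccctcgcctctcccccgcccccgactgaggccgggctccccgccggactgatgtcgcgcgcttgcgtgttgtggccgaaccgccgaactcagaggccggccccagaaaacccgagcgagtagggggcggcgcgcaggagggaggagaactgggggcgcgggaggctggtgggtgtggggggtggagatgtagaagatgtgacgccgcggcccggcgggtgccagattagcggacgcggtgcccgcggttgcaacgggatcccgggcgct
FGFR2: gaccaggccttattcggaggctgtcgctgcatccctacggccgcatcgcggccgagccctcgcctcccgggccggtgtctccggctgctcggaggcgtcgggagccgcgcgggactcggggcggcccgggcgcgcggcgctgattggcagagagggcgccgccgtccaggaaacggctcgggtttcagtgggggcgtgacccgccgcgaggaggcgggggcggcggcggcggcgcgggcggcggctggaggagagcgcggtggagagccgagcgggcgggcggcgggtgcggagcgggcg

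In the FGF1 window the letters ATAAACA begin 177 bases before the annotated start, and in the FGF5 window 212 bases before it. FGF1 and FGF5 each have other annotated starts, and the counts do not show which was in use. Another window of FGF1 held the AP-1 letters 41 bases before the start, a window of PDGFRA held them 32 bases before the start, and a window of PDGFA held the TCF/LEF letters 215 bases before the start. The windows of FGF2, FGFR2 and PDGFRB held no match. Binding was not measured, so a match is no more than a description of the sequence.

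PDGFC, a PDGF ligand secreted in a latent form and released by proteases such as tissue plasminogen activator, moved in the other direction. The gene (chr4:156760454-156971394, minus strand) was counted 877, 599 and 739 times in DMSO and 887, 1314 and 973 times with AS1842856. The levels were 39.9, 39.0 and 39.8 CPM in DMSO and 53.2, 57.5 and 54.6 CPM with AS1842856, so the treated libraries were all above the controls. PDGFC rose 1.39-fold, a log2 fold change of 0.48 ± 0.06 (edgeR adjusted p = 2.01e-13).

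PDGFA and PDGFB, the ligands of the classical PDGF dimers, were close to the limit of detection and were not tested in the fit. PDGFA (chr7:497258-520296, minus strand) had 9, 5 and 6 counts in DMSO and 2, 5 and 3 counts with AS1842856. These were 0.410, 0.326 and 0.323 CPM in DMSO and 0.12, 0.219 and 0.168 CPM with AS1842856, which did not overlap. The summed counts of 20 against 10, relative to library totals, gave a ratio of 0.486 with an exact 95% interval of 0.203 to 1.09, which includes 1. PDGFB (chr22:39223359-39244751, minus strand) had 8, 12 and 8 counts in DMSO and 4, 12 and 13 counts with AS1842856, a ratio of 1.01 with an interval of 0.578 to 1.76. A difference in either gene was not detectable at this depth. These intervals express the error of counting alone, because they pool the libraries of each group and leave out the variation between libraries. The reads carry no molecular identifiers and are not independent molecules, so even the error of counting may be understated.

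Among the receptors, FGFR2 rose. FGFR2 is a receptor tyrosine kinase whose splice forms distinguish epithelial from mesenchymal cells, which gene counts do not resolve, and it lies at chr10:121478334-121598458 on the minus strand. It was counted 751, 618 and 709 times in DMSO and 1157, 1485 and 1268 times with AS1842856. The levels were 34.2, 40.2 and 38.2 CPM in DMSO and 69.4, 65.0 and 71.1 CPM with AS1842856, and the lowest treated library was well above the highest control. FGFR2 increased 1.83-fold (log2 fold change 0.87 ± 0.06, edgeR adjusted p = 2.42e-35), and 5.24% of the genes tested had a higher log2 fold change.

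FGFR1, the FGF receptor typical of mesenchymal cells, lies at chr8:38400215-38468834 on the minus strand. It was counted 2694, 1805 and 2178 times in DMSO and 2052, 2791 and 2279 times with AS1842856. Its levels of 123, 118 and 117 CPM in DMSO and 123, 122 and 128 CPM with AS1842856 overlapped. The log2 fold change was 0.06 ± 0.04 with a 95% interval of -0.02 to 0.14 (edgeR adjusted p = 0.223). LETM2, which overlaps FGFR1 on the opposite strand, held 3.23% as many counts as FGFR1.

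PDGFRB and PDGFRA, the receptors for PDGF dimers, were both scarce in these cells although the mesenchymal markers were abundant. PDGFRB (chr5:150113837-150155872, minus strand) had 20, 14 and 18 counts in DMSO and 7, 8 and 7 counts with AS1842856, or 0.911, 0.912 and 0.969 CPM against 0.420, 0.350 and 0.393 CPM. The groups did not overlap, and PDGFRB fell to 41.7% of its DMSO level (log2 fold change -1.26 ± 0.46, 95% interval -2.15 to -0.37, edgeR adjusted p = 0.0125). PDGFRB passed the filter on low counts only through the DMSO libraries, where it was higher. Its call as lower is therefore not independent of that filter. The call also rested on few counts: the adjusted p was 0.0808 with DESeq2 and 0.0575 with edgeR when AS1842856 replicate B was left out. PDGFRA (chr4:54229097-54298247, plus strand) had 4, 3 and 1 counts in DMSO and 0, 1 and 1 counts with AS1842856. The summed counts of 8 against 2 gave a ratio of 0.243 with an exact 95% interval of 0.0251 to 1.22, so a difference was not detectable at this depth.

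**Figure D2:**
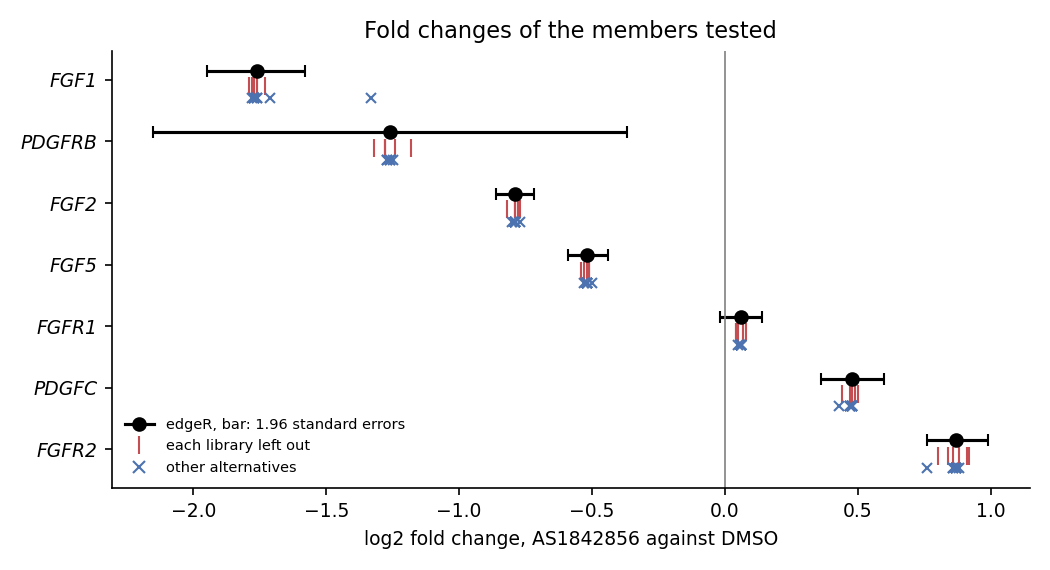
Log2 fold change of the 7 tested members, AS1842856 against DMSO, with the edgeR value and its 95% interval in black, the values with each library left out as red ticks and those of the other alternatives as blue crosses. FGF1, PDGFRB, FGF2 and FGF5 lie below 0 and PDGFC and FGFR2 above it, the interval of FGFR1 includes 0, PDGFRB has the widest interval (-2.15 to -0.37), and the cross of FGF1 that stands apart at -1.33 is the value on log2(FPKM + 1).

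Levels were compared between genes in FPKM, fragments divided by library size and by the length of the exons in kilobases. In DMSO the order was FGF2 (48.1 ± 0.158 FPKM, SD, n = 3), FGF5 (37.5 ± 0.922), FGFR1 (8.55 ± 0.230), PDGFC (7.03 ± 0.0997), FGF1 (5.72 ± 0.0812) and FGFR2 (4.92 ± 0.395), with no overlap between neighbours. FGF2 was above 93.7% of the genes tested. PDGFB at 0.139 FPKM and PDGFRB at 0.130 FPKM overlapped, and PDGFA at 0.0845 FPKM and PDGFRA at 0.0147 FPKM followed. With AS1842856, FGF2 at 27.9 ± 0.967 FPKM and FGF5 at 26.2 ± 0.385 FPKM still led and still did not overlap. PDGFC was next at 9.79 ± 0.391 FPKM, then FGFR2 at 8.99 ± 0.408 FPKM and FGFR1 at 8.93 ± 0.206 FPKM, whose libraries overlapped, while FGF1 stood at 1.68 ± 0.0748 FPKM. PDGFB was at 0.132 FPKM, PDGFRB at 0.0540 FPKM and PDGFA at 0.0405 FPKM overlapped, and PDGFRA was lowest at 0.00340 FPKM. The length used for FPKM was that of all annotated exons joined, 13842 bases for FGFR1 and 7578 bases for FGFR2, so the order of these receptors depends on exons that BT549 cells may not all use.

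The composition of each family was described as shares of its summed FPKM. The 18 secreted FGFs summed to 91.9 ± 0.836 FPKM in DMSO and 57.7 ± 1.17 FPKM with AS1842856. FGF2 accounted for 52.4% of that sum in DMSO and 48.3% with AS1842856, FGF5 for 40.8% and 45.4%, and FGF1 for 6.22% and 2.91%. The 4 FGFRs summed to 15.3 ± 0.208 FPKM in DMSO and 19.5 ± 0.651 FPKM with AS1842856. FGFR1 accounted for 56.1 ± 1.63% and then 45.9 ± 0.879%, and FGFR2 for 32.3 ± 2.50% and then 46.1 ± 0.566%, so that these receptors came to near equal shares. PDGFA to PDGFD summed to 8.02 ± 0.157 FPKM in DMSO and 12.5 ± 0.711 FPKM with AS1842856, of which PDGFC accounted for 87.7% and 78.5% and PDGFD for 9.52% and 20.2%.

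**Figure D3:**
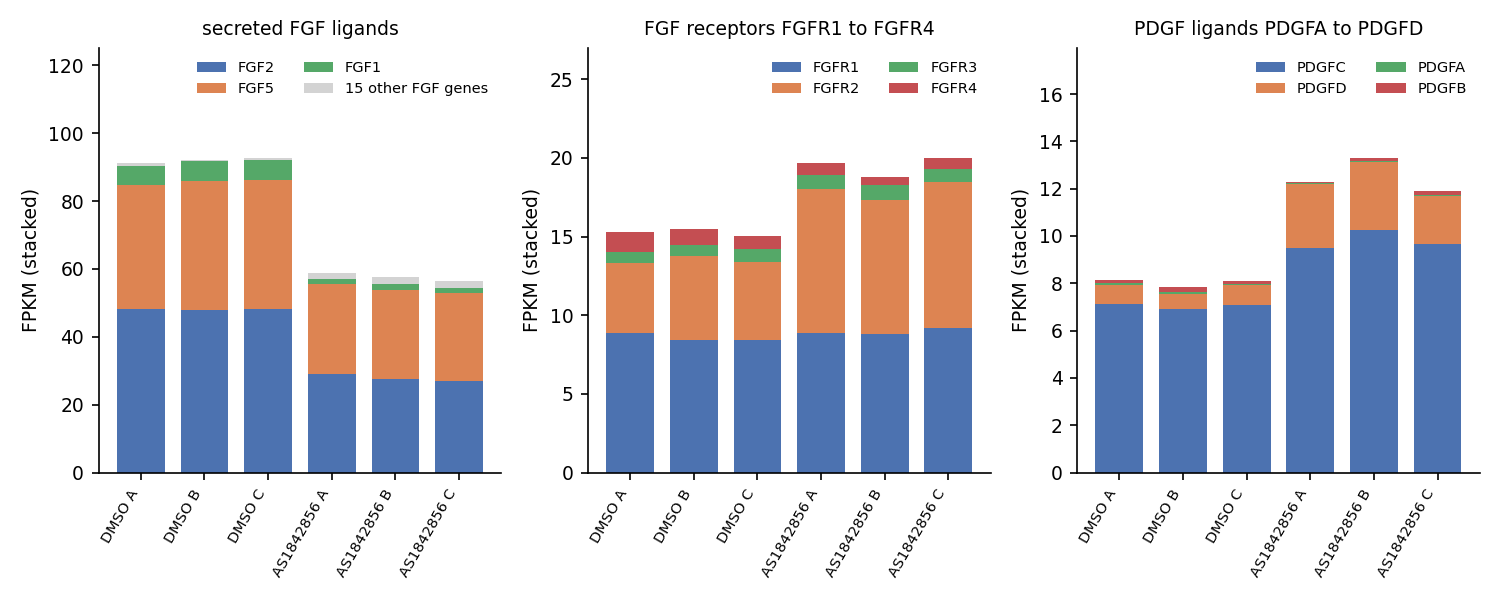
FPKM stacked by gene in each of the 6 libraries, for the 18 secreted FGFs, the 4 FGF receptors and the 4 PDGF ligands, with a separate axis from 0 for each family. The FGF stacks are lower with AS1842856 (mean 57.7 FPKM, against 91.9 in DMSO), while the stacks of the receptors (19.5 against 15.3) and of the PDGFs (12.5 against 8.02) are higher, with a wider FGFR2 band and a wider PDGFD band.

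Ratios between related members were formed within each library. The log2 ratio of FGF1 to FGF2 was -3.10, -3.05 and -3.07 in DMSO and -4.18, -3.99 and -3.99 with AS1842856, a difference of -0.98. The log2 ratio of FGFR1 to FGFR2 was 0.97, 0.68 and 0.75 in DMSO and -0.04, 0.04 and -0.02 with AS1842856, a difference of -0.81. The groups overlapped in neither ratio, and in both the exact two-sided permutation test gave p = 0.10, the smallest that 3 against 3 libraries allow (Benjamini-Hochberg 0.133 over the 4 ratios computed). The log2 ratio of PDGFA to PDGFC differed by -1.57 (exact permutation p = 0.10, adjusted 0.133) and that of PDGFA to PDGFB by -0.96 with overlap (exact permutation p = 0.20, adjusted 0.20), both on the few counts of PDGFA. No ratio of PDGFRA to PDGFRB was formed, because PDGFRA was at 0 in AS1842856 replicate A.

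The genes most like FGFR2 and FGF1 were sought among the 14338 genes tested, as those with the smallest Euclidean distance in log2 CPM, centered on the DMSO mean, over the 6 libraries. The nearest to FGFR2 were TMEM189 (distance 0.0989, log2 fold change 0.86), FAM92A (0.113, 0.89) and SNHG4 (0.136, 0.82). The nearest to FGF1 were HERC5 (distance 0.102, log2 fold change -1.75), ARHGDIB (0.103, -1.76) and PXDC1 (0.137, -1.72).

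The other genes of the pathways were described from 9 lists holding 111 genes, of which 72 were tested. Of these, 28 were called higher with AS1842856, 31 were called lower and 13 were not called, with a median log2 fold change of 0.02. The share called was 81.9%, beside 56.0% of all genes tested.

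Of 15 other secreted FGFs only 3 were tested, and 2 of these, FGF18 and FGF20, rose, beside 27.6% of all genes tested that were called higher. Neither gene would have passed the filter on low counts by its DMSO libraries alone, so the filter favoured finding a rise. FGF20 was not counted in DMSO (0 counts in all 3 libraries) and reached 16, 23 and 24 counts in the treated replicates A, B and C. With a floor of 3 counts per library, its level was at least 6.71-fold higher with AS1842856. FGF18 had 0.540 ± 0.360 CPM in DMSO and 1.39 ± 0.111 CPM with AS1842856 (log2 fold change 1.29, edgeR adjusted p = 0.00257). FGF18 and FGF20 were named after their values were seen. Both were minor in level, with FGF18 at 1.21% and FGF20 at 1.13% of the summed FPKM of secreted FGFs in treated cells. FGF12, the only tested member of the intracellular FGF homologous factors, fell from 20.9 ± 1.05 to 11.3 ± 1.41 CPM (log2 fold change -0.88, edgeR adjusted p = 9.74e-16).

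Among other FGF receptors, co-receptors and binding proteins, 4 of 5 tested genes fell and none rose, with a median log2 fold change of -0.68. For comparison, 28.4% of all genes tested were called lower. FGFRL1, a receptor without a kinase domain, fell from 143 ± 4.08 to 80.0 ± 4.07 CPM (log2 fold change -0.84, edgeR adjusted p = 1.52e-48). FGFR4 fell from 5.09 ± 1.18 to 3.25 ± 0.652 CPM (log2 fold change -0.68, edgeR adjusted p = 0.000836). FGFR3 was at 3.57 ± 0.367 and 4.38 ± 0.346 CPM with overlapping libraries (edgeR adjusted p = 0.164). FLRT1, a membrane protein that binds FGF receptors, fell from 3.27 ± 0.153 to 0.242 ± 0.0193 CPM (log2 fold change -3.71). FLRT1 passed the filter on low counts only through its DMSO libraries. Its place among the 4 genes that fell is therefore not independent of that filter. AP000721.2, which shares exonic sequence with FLRT1 on the same strand, held 9.34% as many counts in DMSO and 0.0% with AS1842856. Among FGFR1 to FGFR4, FGFR2 was thus called higher, FGFR4 was called lower and FGFR1 and FGFR3 were not called, and their fold changes were not tested against each other.

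Among other PDGF genes, PDGF-processing proteases and co-receptors, 2 of 6 tested genes rose and 3 fell. Across all genes tested, 27.6% were called higher and 28.4% lower. PDGFD, which like PDGFC is secreted in a latent form, rose from 3.28 ± 0.477 to 10.8 ± 1.99 CPM (log2 fold change 1.71 ± 0.15, edgeR adjusted p = 1.72e-23). NRP1, a co-receptor for several growth factors, rose from 214 ± 7.32 to 327 ± 4.58 CPM (log2 fold change 0.61). PLAT, tissue plasminogen activator, which cleaves latent PDGFC, fell from 47.7 ± 2.72 to 29 ± 1.97 CPM (log2 fold change -0.72, edgeR adjusted p = 1.38e-21). FURIN, a protease that processes PDGF precursors, fell from 24.8 ± 1.12 to 13.5 ± 1.42 CPM (log2 fold change -0.88).

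Heparan sulfate genes, whose products carry, build or modify the chains that FGFs need for receptor binding, were mostly lower. Of 9 tested core proteins 7 fell and 2 rose (median log2 fold change -0.66), and of 11 tested enzymes that build, sulfate, trim or cleave the chains 9 fell and 1 rose (median -0.68), beside 28.4% of all genes tested that were called lower. SDC1, syndecan-1, rose from 70.8 ± 0.325 to 196 ± 5.21 CPM (log2 fold change 1.47), while SDC3, syndecan-3, fell from 58.5 ± 0.603 to 19.9 ± 1.46 CPM (log2 fold change -1.55). HS2ST1, a 2-O-sulfotransferase, was the enzyme that rose, from 89.1 ± 2.91 to 146 ± 1.60 CPM (log2 fold change 0.71). SULF1, an endosulfatase that removes sulfate groups from finished chains, fell from 7.86 ± 0.831 to 2.37 ± 0.134 CPM (log2 fold change -1.74). HPSE, heparanase, which cleaves the chains and was named after its value was seen, fell from 58.0 ± 1.84 to 28.1 ± 0.300 CPM (log2 fold change -1.04), so the 9 enzymes that fell include these 2 that remove sulfate or cut chains.

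Downstream of the receptors, 9 of 17 tested adaptors and enzymes rose and 4 fell, with a median log2 fold change of 0.16. The shares over all genes tested were 27.6% called higher and 28.4% called lower. PIK3R1, the regulatory subunit of PI3K, rose from 159.6 ± 0.782 to 337 ± 8.61 CPM (log2 fold change 1.08). RASA1, a RAS GTPase-activating protein that binds PDGF receptors, fell from 164 ± 6.01 to 62.0 ± 1.19 CPM (log2 fold change -1.40), and CCNH, which overlaps it on the opposite strand, held 23.1% as many counts in DMSO and 44.2% with AS1842856, with a log2 fold change of -0.46. FRS2 was at 42.4 ± 0.807 and 38.7 ± 1.34 CPM and was not called (edgeR adjusted p = 0.0586).

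The listed ERK feedback and ETS target genes were mostly higher. Of 14 ERK feedback and ETS target genes, all tested, 11 rose, 1 fell and 2 were not called, with a median log2 fold change of 0.67, beside 27.6% of all genes called higher. SPRY4, a feedback inhibitor of receptor tyrosine kinase signaling, rose from 48.7 ± 2.10 to 154 ± 4.45 CPM (log2 fold change 1.66 ± 0.05, edgeR adjusted p = 6.04e-96). DUSP6, the ERK phosphatase, rose from 12.5 ± 2.0 to 17.5 ± 0.549 CPM (log2 fold change 0.50, edgeR adjusted p = 6.81e-06). The ETS factors ETV4 and ETV5 rose from 10.2 ± 0.346 to 19.9 ± 0.634 CPM and from 37.6 ± 1.22 to 43.8 ± 1.60 CPM. DHX8, on the opposite strand to ETV4 and overlapping its exons, held 558% as many counts as ETV4 in DMSO and 229% with AS1842856, and had a log2 fold change of -0.31. SPRED3 was the gene that fell, from 14.2 ± 0.869 to 10.0 ± 0.483 CPM. ERK activity itself was not measured in these libraries.

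Of 12 related receptor tyrosine kinases and VEGF-type ligands, 6 were tested, of which 1 rose and 2 fell. Beside these, 27.6% of all genes tested were called higher and 28.4% lower. VEGFA, the angiogenic ligand, rose from 125 ± 4.75 to 163 ± 6.95 CPM (log2 fold change 0.38). CSF1, the macrophage growth factor, fell from 189 ± 3.31 to 40.9 ± 2.36 CPM (log2 fold change -2.20), a log2 fold change below that of any tested member.

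**Figure D4:**
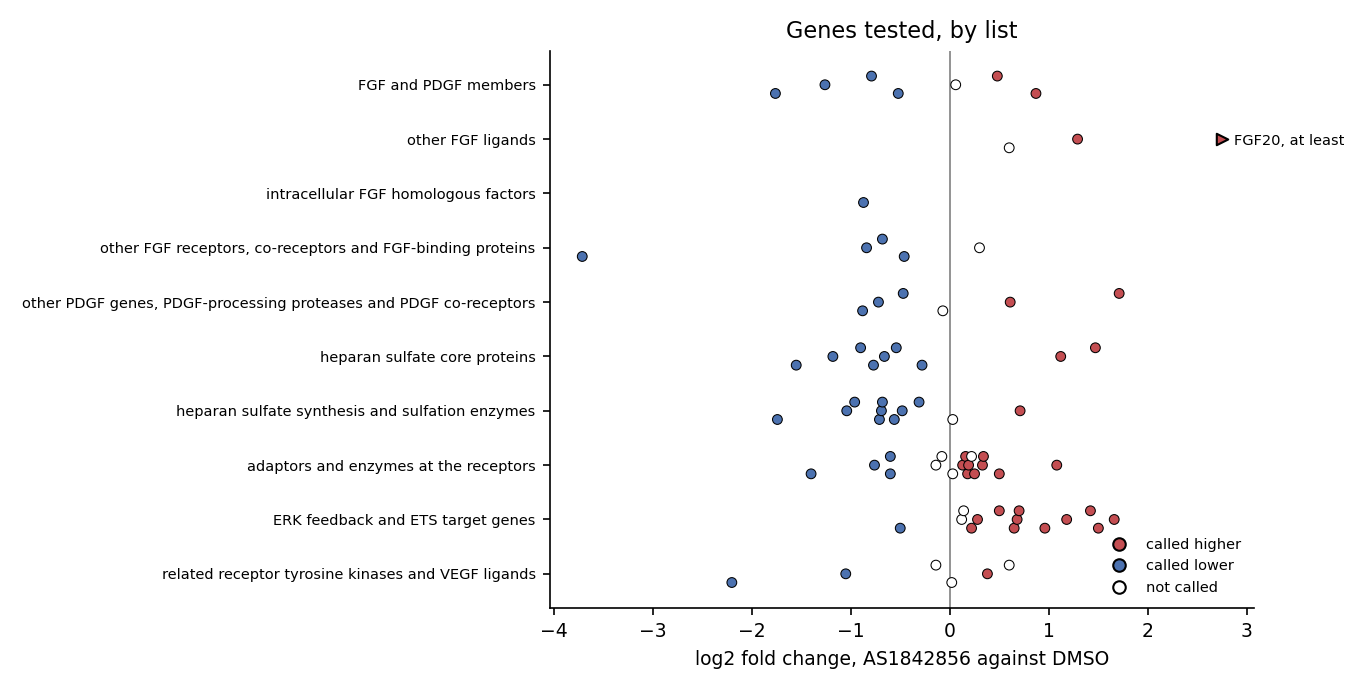
Log2 fold change of each tested gene, AS1842856 against DMSO, by list, with 1 point per gene, filled red where called higher, blue where called lower and open where not called. FGF20 is drawn at its lower bound (at least 6.71-fold); the heparan sulfate lists lie mostly below 0 (7 of 9 and 9 of 11 called lower) and the ERK feedback list mostly above it (11 of 14 called higher).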

How the data were processed

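RNA-Seq was measured in 6 libraries of BT549 cells, 3 per group, grouped by the treatment in the sample labels. The authors deposited raw read counts per gene, without normalization, and FPKM values per library for 25015 genes. The methods of the study name STAR as the mapper and the submitters' processing notes name CASAVA and Bowtie 0.12.2, on GRCh38; the counting tool, the annotation and the use of strand are not given in the sources used here. All 58735 gene identifiers were found in GENCODE release 29, which gave symbols and coordinates. FPKM had been divided by the joined exon length of each gene, within 1.25% for the members.

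The counts were fitted with edgeR 4.0.16 under R 4.3.3 (filterByExpr, TMM, glmQLFit with robust estimation, glmQLFTest, no covariate), which tested 14338 genes holding 99.9% of the counts. The filter asked for a CPM equal to 10 counts at the median library size, in as many libraries as a group holds. It also asked for 15 counts in total. A tested gene could therefore lie below that CPM in all libraries of the other group. Benjamini-Hochberg adjustment covered all genes tested, and the threshold was 0.05. Library sizes set the precision, and the common biological coefficient of variation was 0.0374. Replicates of a group were not duplicates of each other (chi-square per degree of freedom from 2.38 to 3.28). The replicate letters did not pair the libraries. A floor of 3 counts per library was used for a gene at 0 in all 3 libraries of a group (FGF20), while low genes with at least 1 count in each group were given as ratios of summed counts with exact intervals.

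The alternatives were DESeq2 1.42.0, DESeq2 size factors, library totals, omission of the filter, a minimum mean of 50 counts, the replicate letter as a block, each library left out, and limma 3.58.1 with pseudocounts of 1 and 0.1, on log2(FPKM + pseudocount) where the mean FPKM was 0.5 or more, a scale that understates the change of low genes. The scripts were tested on simulated data. The members and lists were chosen with earlier results of these data known, and the lists were written from general knowledge. Besides the members, the genes named were the largest called rise and fall of each list with a mean of at least 1 CPM, FGFR3, FGFR4, FGFRL1, PDGFD, FRS2, PLAT, NRP1, SPRY4, DUSP6, ETV4 and ETV5, and the 3 genes most like FGFR2 and FGF1 (log2 CPM with a prior count of 2). Promoter windows were read from RefSeq (GRCh38.p14).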

Additional observations from a re-analysis of the deposited data

How the results depend on the processing

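The directions of all 7 tested members held under every alternative that tested them. The calls of FGF1, FGF2, FGF5, PDGFC and FGFR2 held under all of these, and FGFR1 was called under none. PDGFRB kept its direction, but lost its call with DESeq2 (log2 fold change -1.27, adjusted p = 0.0808) and without AS1842856 replicate B (edgeR, -1.18, adjusted p = 0.0575), and was too low to be tested under the FPKM and 50-count limits. The members called numbered 2 higher throughout and 3 or 4 lower. With each library left out, 7427 to 7678 genes were called, with 26 to 28 pathway genes higher and 29 to 33 lower, and under the other alternatives 6660 to 8030 genes, with 25 to 28 pathway genes higher and 28 to 32 lower. The log2 fold change of FGF1 lay between -1.79 and -1.73 with each library left out and was -1.33 on log2(FPKM + 1). The log2 ratio of FGF1 to FGF2 differed by -1.01 to -0.92 with each library left out, and that of FGFR1 to FGFR2 by -0.87 to -0.72.

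Libraries with the same letter did not deviate together (correlations of 0.042, -0.012 and -0.00332 for A, B and C). The fit with the replicate block called 7862 genes, with 2 members higher and 4 lower, and changed no call of a member. Depth limits PDGFA, PDGFB, PDGFRA and PDGFRB, at 20 counts or fewer in any library. Between-gene levels depend on annotated exon length, and protein was not measured.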
